A study of Mus musculus with 18 samples.

Results

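The 9 genes described here encode the enzymes of serine synthesis, the folate enzymes that carry one-carbon units, and 1 related dehydrogenase. They were chosen by symbol (Phgdh, Psat1, Psph, Shmt1, Shmt2, Mthfd1, Mthfd2, Mthfd1l and Grhpr), and all 9 of 9 were found among the 18204 genes of the deposited table. All 9 lay above the expression limit that left 16383 genes for testing. The values are TPM, transcript levels corrected for length and scaled to a fixed library total, from RNA-seq of the mouse macrophage cell line J774.1. Across 18 samples, wildtype cells and cells with both CTBP genes targeted by CRISPR (Ctbp1/2dKO, here dKO) were treated over 4 h with vehicle (PBS/DMSO), with MTOB at 1.5 mM, or with 4-Cl-HIPP at a concentration of 250 µM, with 3 replicates in each of the 6 groups. The comparison asked whether these inhibitors of CTBPs change gene expression, and whether they also do so without CTBPs. Both inhibitor comparisons in a genotype share its 3 vehicle samples. The methods describe single-cell outgrowth and selection of clones as wildtype or knockout, and how many clones were sequenced is not given in the sources used here, so a difference between the genotypes cannot be told apart from a difference between clones.

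Serine is made from the glycolytic intermediate 3-phosphoglycerate. PHGDH oxidises it with NAD+, PSAT1 transfers an amino group from glutamate to the product, and PSPH removes the phosphate. SHMT1 in the cytosol and SHMT2 in mitochondria split serine into glycine and a one-carbon unit bound to tetrahydrofolate. MTHFD2 and MTHFD1L carry that unit to formate inside mitochondria, and MTHFD1 rebuilds folate carriers from formate in the cytosol, which feed purine and thymidylate synthesis. GRHPR reduces glyoxylate and hydroxypyruvate. PHGDH, GRHPR and the CTBPs share a D-isomer specific 2-hydroxyacid dehydrogenase fold, the domain to which both inhibitors are directed in CTBPs. MTOB (4-methylthio-2-oxobutanoate) is also the last intermediate of the methionine salvage pathway. 4-Cl-HIPP is 3-(4-chlorophenyl)-2-(hydroxyimino)propanoic acid. In macrophages, serine and one-carbon metabolism is known to support cytokine production.

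In GENCODE coordinates (GRCm39), 6 of the 9 genes are read from the minus strand. These are Phgdh (chr3:98220484-98255047), Psat1 (chr19:15882039-15924701), Psph (chr5:129841925-129864513), Shmt1 (chr11:60661185-60708167), Shmt2 (chr10:127352266-127358323) and Mthfd2 (chr6:83282673-83302890). The plus-strand genes are Mthfd1 (chr12:76301984-76366588), Mthfd1l (chr10:3922870-4117081) and Grhpr (chr4:44981390-44998142). The library kit does not mark strand, so reads of overlapping genes cannot be separated by strand. Exons of Grhpr share 4145 bases with Zbtb5 on the opposite strand (4.53 to 6.44 TPM), those of Psph share 465 bases with Cct6a (333 to 389 TPM), those of Shmt1 share 346 bases with Smcr8 (22.3 to 30.7 TPM), and those of Shmt2 share 727 bases with Ndufa4l2 (0 to 1.01 TPM), each on the opposite strand. The pseudogene Phgdh-ps1 was listed at 3.60 to 8.61 TPM, and how reads were divided between it and Phgdh was not tested.

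The promoters of Psat1 and Mthfd2, the members that passed in a comparison of 2 groups, and of Phgdh, a relative of the CTBPs, are shown as the 250 bases upstream of the RefSeq start, 5′ to 3′ on the coding strand. CCAAT, or ATTGG on the other strand, is in capitals; this motif was chosen after the sequences were seen. Within these windows, 21 bases for Phgdh and 18 bases for Mthfd2 also lie in GENCODE exons of the same gene. The windows are chr3:98247286-98247535, chr19:15902424-15902673 and chr6:83294587-83294836 in GRCm39, all on the minus strand, and their starts lie 7762, 22278 and 8304 bases inside the outermost GENCODE start of each gene.
Phgdh: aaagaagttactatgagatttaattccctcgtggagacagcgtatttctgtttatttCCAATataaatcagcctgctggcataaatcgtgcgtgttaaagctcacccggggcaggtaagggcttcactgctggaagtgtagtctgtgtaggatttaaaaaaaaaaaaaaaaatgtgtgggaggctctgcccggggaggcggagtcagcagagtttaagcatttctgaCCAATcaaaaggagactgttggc
Psat1: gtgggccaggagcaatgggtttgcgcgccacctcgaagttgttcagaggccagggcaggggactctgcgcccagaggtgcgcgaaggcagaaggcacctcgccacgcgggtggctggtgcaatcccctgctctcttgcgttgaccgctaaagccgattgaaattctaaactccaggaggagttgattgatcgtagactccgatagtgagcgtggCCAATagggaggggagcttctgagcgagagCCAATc
Mthfd2: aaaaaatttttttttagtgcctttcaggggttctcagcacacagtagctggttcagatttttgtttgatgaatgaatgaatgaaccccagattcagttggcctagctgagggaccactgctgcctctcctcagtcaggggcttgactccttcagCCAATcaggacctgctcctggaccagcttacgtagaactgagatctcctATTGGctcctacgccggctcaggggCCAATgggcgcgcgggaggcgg
The Mthfd2 window holds 3 copies of CCAAT, and the Phgdh and Psat1 windows 2 each. Psat1 has 2 RefSeq promoters, and the window shown was the one placed nearest the outermost GENCODE start. The other Psat1 promoter held no copy. At least 1 copy, on either strand and with overlaps allowed, was present in 6 of the 10 RefSeq promoters of the 9 genes and in 33.9% of all 32851 promoters, and 2.79% of all promoters held 3 or more. The core TGATGNAA, found in sites of CEBP and ATF factors, was in 3.97% and the E-box CACGTG in 7.15% of all promoters (both strands, from 250 bases before to 50 after the start), and neither was found in the 10 member promoters. These letters are descriptions of the sequence and do not show binding.

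The transcripts of both targeted genes were lower in dKO cells, by far more for Ctbp1 than for Ctbp2. Ctbp1 had 170.1 to 238 TPM in the 9 wildtype samples and 19.7 to 31.5 TPM in the 9 dKO samples, with a log2 fold change of -3.07 under vehicle (SE 0.13, adjusted p = 1.61e-10, limma). Ctbp2 had 87.8 to 96.9 TPM in wildtype and 68.5 to 81.9 TPM in dKO samples (log2 fold change -0.28 under vehicle, SE 0.06, adjusted p = 0.00427). With the inhibitors, 0 of these 2 genes passed in either genotype by limma, and 0 had an unadjusted p below 0.05. Of all genes, 7.26% and 6.58% passed with MTOB and 0.366% and 0.501% with 4-Cl-HIPP in wildtype and dKO cells. The shares at the unadjusted limit were 18.4% and 19% with MTOB, and 8.19% and 8.47% with 4-Cl-HIPP. In wildtype cells Ctbp1 had 192, 170.1 and 199 TPM with MTOB, below vehicle at 212, 238 and 204 TPM (log2 -0.22, not passed). The study aimed at frameshifts or early stop codons and checked the loss of both proteins by western blot, which is not analysed here. Remaining transcript does not measure remaining protein, and whether these reads come from edited alleles was not tested. Replicates correlated with r = 0.983 to 0.987, and no library stood apart. All 10 macrophage markers were listed, and 4 of 10 markers of other cell types were in the table used here, with 18-sample medians from 0 to 0.168 TPM. Of these macrophage markers, Csf1r had 612 to 942 TPM, Itgam 11.3 to 65.3 TPM and Aif1 only 1.62 to 10.2 TPM. Adgre1 (6.70 to 107 TPM) and Cd14 (91.6 to 857 TPM) differed between genotypes in all 3 tests and with MTOB in wildtype cells. Over the 10 macrophage markers, log2 differences of dKO against wildtype ran from -1.67 to 1.57 under vehicle. They ran from -2.92 to 1.49 under MTOB and from -1.86 to 1.85 under 4-Cl-HIPP. The 10 macrophage markers gave 4 higher and 0 lower calls with MTOB in wildtype, and 3 and 0 in dKO cells. Among all genes 3.8% were higher and 3.46% lower in wildtype, and 3.04% and 3.54% in dKO cells. In dKO against wildtype, 3 markers were higher and 2 lower under vehicle, 2 and 3 under MTOB, and 3 and 3 under 4-Cl-HIPP. The all-gene shares there were 7.01% and 3.72%, 6.98% and 4.18%, and 6.6% and 3.63%. With 4-Cl-HIPP the markers gave 0 calls in wildtype and 1 lower call, Cd14, in dKO cells, where 0.366% and 0.501% of all genes passed. The part of these marker changes in the results below was not tested. In such bulk samples of a cell line, fewer cells with a transcript and less of it per cell cannot be told apart.

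Mitochondrial Shmt2 and the first 2 serine synthesis enzymes were the most abundant of the 9 transcripts. The mean over 18 samples was 402 TPM for Shmt2, 337 for Phgdh and 254 for Psat1. Mthfd2 (121 TPM), Mthfd1 (88.4), Mthfd1l (71.5), Psph (46.3), Shmt1 (38.8) and Grhpr (12.7) followed in mean TPM. Each gene exceeded the next in all 18 samples except Psph, which was above Shmt1 in 12 of 18, so only that pair did not differ beyond its spread. By the authors' mean normalized count, Shmt2 ranked 202, Psat1 330 and Phgdh 358 of 18204 genes, and Grhpr ranked 8758 with a count of 71.9. The mitochondrial Shmt2 transcript was 8.45 to 12.6 times as abundant in TPM as cytosolic Shmt1, with a median of 10.2. Phgdh was 20.9 to 34.1 times as abundant in TPM as its relative Grhpr.

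**Figure D1:**
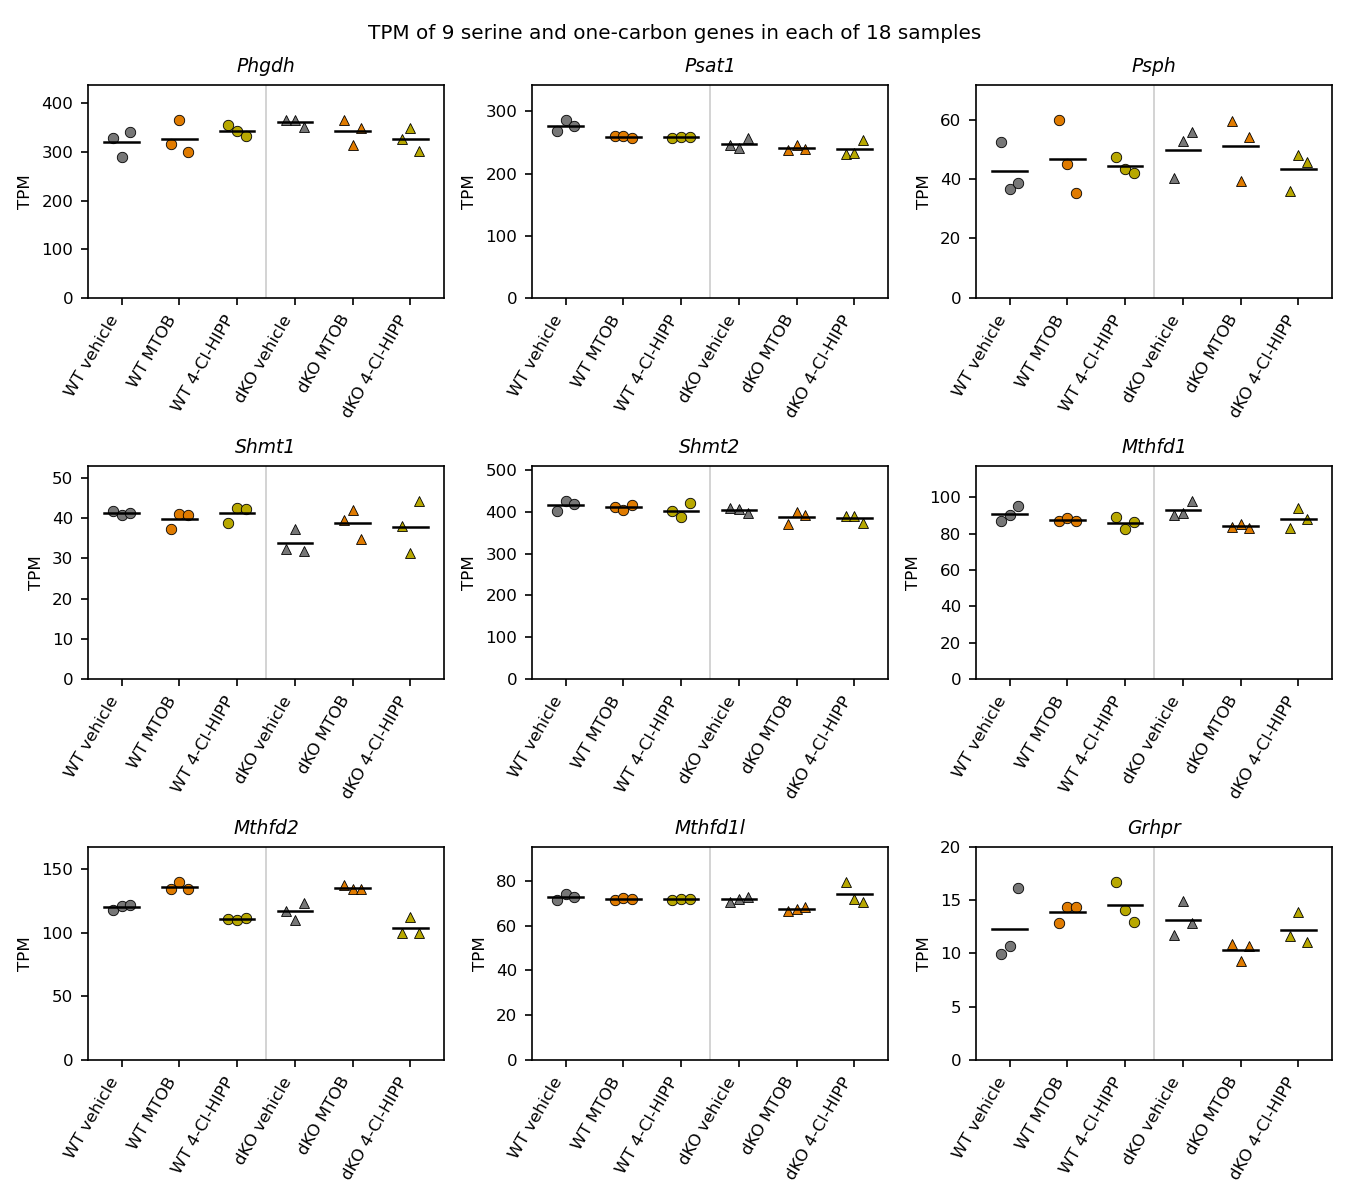
TPM (linear axes from 0) of the 9 genes in each of 18 samples, with circles for wildtype (WT), triangles for dKO and lines for group means of 3 replicates. Mthfd2 has 134 to 140.1 TPM in the MTOB samples against 110.2 to 124 TPM in the vehicle samples, whereas Psph and Grhpr scatter widely within groups.

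The spread between replicates differed widely among the genes. The median within-group coefficient of variation was 1.44% for Mthfd1l, 1.99% for Mthfd2, 2.44% for Psat1, 2.66% for Shmt2 and 4.16% for Mthfd1. It was 7.04% for Shmt1, 7.35% for Phgdh, 12.4% for Grhpr and 18.2% for Psph. A change of a given size was thus easier to detect in Mthfd2 than in Psph, whose levels ran from 35.4 to 59.8 TPM over all samples. The summed TPM of the 9 genes had group means from 1311 to 1394, with SDs from 9.01 to 36.9 (n = 3).

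In wildtype cells Mthfd2, a mitochondrial dehydrogenase and cyclohydrolase of the folate cycle, was the 1 member that passed with MTOB, and its rise was small. The 3 vehicle samples had 118, 121 and 122 TPM and the 3 MTOB samples 135, 140.1 and 134 TPM, so the groups did not overlap. The fold change of (TPM + 1) was 1.13 (log2 0.18, SE 0.05, 95% interval 0.08 to 0.28, adjusted p = 0.0345, two-sided limma test adjusted over 16383 genes). Thus 1 of 9 members passed an adjusted p of 0.05, where 7.26% of all genes passed (3.8% higher and 3.46% lower), and 2 of 9 against 18.4% had an unadjusted p below 0.05. The Mthfd2 call was lost without any 1 of its 6 samples (adjusted p 0.0664 to 0.126, log2 0.16 to 0.19), without the variance trend (adjusted p = 0.0809) and with replicate number as a block (adjusted p = 0.0560).

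In dKO cells Mthfd2 was again the member that passed with MTOB. The dKO vehicle samples had 117, 110.2 and 124 TPM, and the dKO MTOB samples had 138, 134 and 135 TPM. All 3 MTOB samples lay above all 3 vehicle samples, and the fold change of (TPM + 1) was 1.16 (log2 0.21, SE 0.05, 95% interval 0.11 to 0.32, adjusted p = 0.0146). In dKO cells 1 of 9 members passed, where 6.58% of all genes passed (3.04% higher and 3.54% lower), and 3 of 9 against 19% had an unadjusted p below 0.05. This call was lost without dKO vehicle replicate 2 (log2 0.17, adjusted p = 0.0779) and when only the 2 groups entered the fit (adjusted p = 0.115). The difference between the MTOB effects on Mthfd2, wildtype minus dKO, was -0.03 on the log2 scale (95% interval -0.18 to 0.11, adjusted p = 0.976), so a difference was not detectable, and the interval does not show that the effects are alike.

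When the MTOB effects in the 2 genotypes were averaged, a contrast added after the data were seen, Mthfd2 was 1.15-fold higher (log2 0.20, SE 0.03, adjusted p = 0.00106), with higher levels in 6 of 6 MTOB samples than in any vehicle sample of either genotype. In this contrast 1 of 9 members passed, where 13.2% of all genes did. The Mthfd2 call held in all 19 alternatives tried for this contrast, 12 of which left out 1 sample each (adjusted p 0.000523 to 0.00462). Relative to its cytosolic counterpart Mthfd1, the Mthfd2 transcript had a TPM ratio of 1.33 ± 0.0420 under vehicle and 1.56 ± 0.0204 with MTOB in wildtype (SD, n = 3). In dKO cells the TPM ratio was 1.25 ± 0.0489 under vehicle and 1.61 ± 0.0359 with MTOB (SD, n = 3). The lower Mthfd1 level with MTOB in dKO cells (log2 -0.14, adjusted p = 0.102, limma, not passed) also enters the ratio there. These ratios were not tested.

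Phgdh, the first enzyme of the pathway and a member of the CTBP fold family, did not pass any test. Transcript levels do not show whether an inhibitor binds or blocks PHGDH or GRHPR, and this was not tested. In wildtype cells it had 328, 289 and 341 TPM under vehicle, 316, 366 and 301 TPM with MTOB, and 355, 342 and 333 TPM with 4-Cl-HIPP. In dKO cells the values were 365, 365 and 351 TPM under vehicle, 365, 315 and 349 TPM with MTOB, and 327, 349.9 and 302 TPM with 4-Cl-HIPP. Each MTOB group overlapped its vehicle group. Under 4-Cl-HIPP the wildtype groups overlapped, whereas the 3 dKO samples lay below the 3 dKO vehicle samples. The log2 effect of MTOB was 0.03 in wildtype (95% interval -0.13 to 0.20) and -0.07 in dKO cells (-0.24 to 0.09). For 4-Cl-HIPP the log2 effect was 0.11 in wildtype (-0.06 to 0.27) and -0.15 in dKO cells (-0.31 to 0.02). The difference between the latter effects was 0.25 on the log2 scale (95% interval 0.02 to 0.49), with an unadjusted p of 0.0357 and an adjusted p of 1 (limma), and did not pass.

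**Figure D2:**
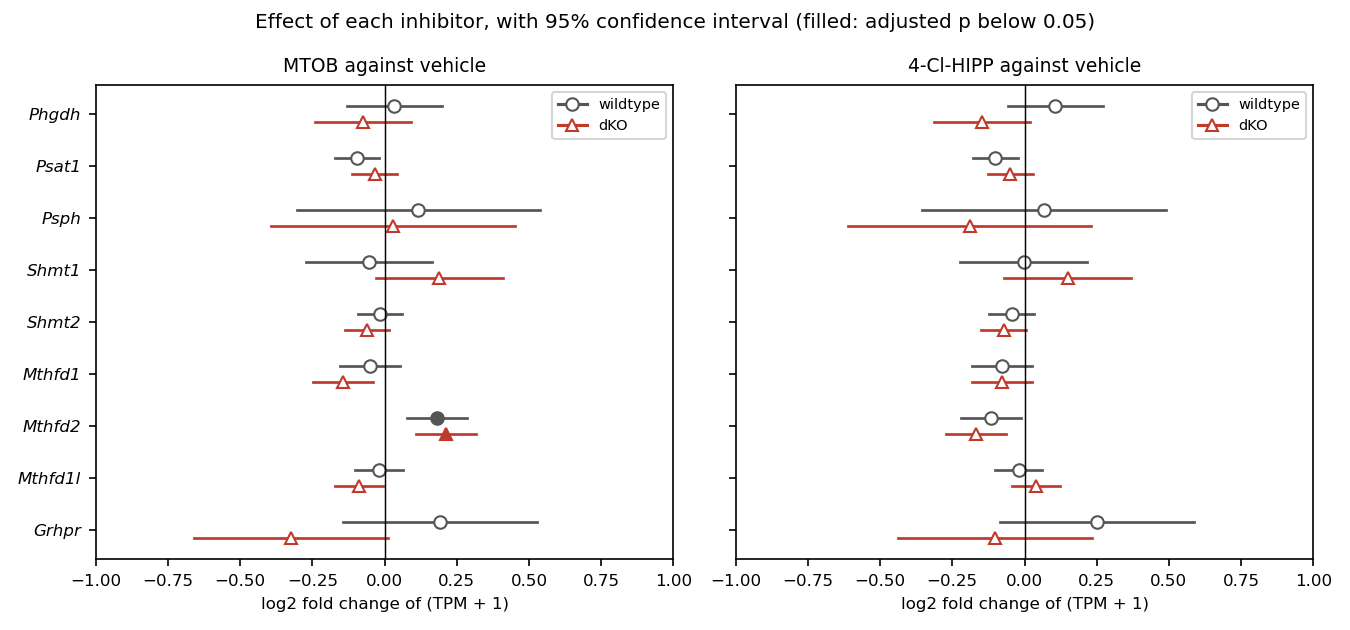
Log2 fold change of (TPM + 1) for each inhibitor against vehicle in wildtype (grey circles) and dKO cells (red triangles), with 95% confidence intervals from limma; filled symbols have an adjusted p below 0.05. Only Mthfd2 with MTOB is filled, at 0.18 in wildtype and 0.21 in dKO cells.

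With 4-Cl-HIPP none of the 9 genes passed in either genotype by limma. The counts were 0 of 9 in wildtype, where 0.366% of all genes passed, and 0 of 9 in dKO cells, where 0.501% passed, while 2 and 1 of the 9 had an unadjusted p below 0.05 (8.19% and 8.47% of all genes). Mthfd2 had 111, 110.5 and 112 TPM with 4-Cl-HIPP in wildtype, below all 3 vehicle samples (log2 -0.11, 95% interval -0.22 to -0.01, adjusted p = 0.546). In dKO cells the 4-Cl-HIPP samples had 99.9, 113 and 99.7 TPM and overlapped the vehicle samples at 1 value (log2 -0.17, 95% interval -0.27 to -0.06, adjusted p = 0.207). Without dKO 4-Cl-HIPP replicate 2 this reached -0.23 with an adjusted p of 0.0437. Averaged over both genotypes, the log2 effect on Mthfd2 was -0.14 (SE 0.03, adjusted p = 0.0592, not passed; 0 of 9 members against 1.5% of all genes). It passed without dKO vehicle replicate 2 (log2 -0.16, adjusted p = 0.0287), without dKO 4-Cl-HIPP replicate 2 (log2 -0.17, adjusted p = 0.00874) and with median-of-ratios scaling (log2 -0.16, adjusted p = 0.0399). MTOB was dissolved in PBS and 4-Cl-HIPP in DMSO, and they were given at different concentrations. Their effects thus stand side by side here and were not compared. The paper names the vehicle as PBS/DMSO in its methods and as DMSO in its description, so its match to each solvent is unclear.

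The enzymes after PHGDH and the SHMT pair gave no call with either inhibitor. Psat1 had 269, 286 and 276 TPM under vehicle in wildtype, 259.9, 261 and 257 TPM with MTOB, and 257, 259 and 259 TPM with 4-Cl-HIPP. All treated wildtype samples lay below the vehicle samples, but the log2 effects of -0.10 (MTOB, adjusted p = 0.153) and -0.10 (4-Cl-HIPP, adjusted p = 0.438) did not pass. In dKO cells the log2 effects on Psat1 were -0.03 with MTOB (95% interval -0.11 to 0.04) and -0.05 with 4-Cl-HIPP (-0.13 to 0.03). Psph had the widest intervals, for example 0.12 with MTOB in wildtype (95% interval -0.30 to 0.54). The log2 effects on Shmt2 ran from -0.07 to -0.02 over the 4 inhibitor comparisons, all with adjusted p above 0.40, and those on Shmt1 from -0.05 to 0.19.

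The cytosolic Mthfd1 and the mitochondrial formate enzyme Mthfd1l did not pass with either inhibitor. Mthfd1 had 83.9, 85.6 and 83.4 TPM with MTOB in dKO cells, against 90.2, 91.6 and 98.0 TPM under vehicle. These groups did not overlap, and the log2 effect of -0.14 did not pass (95% interval -0.25 to -0.04, adjusted p = 0.102). For Mthfd1l the MTOB samples of dKO cells had 66.6, 67.5 and 68.4 TPM against 70.7, 71.9 and 72.9 TPM under vehicle (log2 -0.09, 95% interval -0.17 to -0.01, adjusted p = 0.225). In wildtype cells the MTOB effects were -0.05 for Mthfd1 and -0.02 for Mthfd1l on the log2 scale. For 7 of the 9 genes, all but Psph and Grhpr, every 95% interval in the 7 comparisons of 2 groups lay within a 1.5-fold change of (TPM + 1).

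Grhpr, the other D-2-hydroxyacid dehydrogenase of the set, was scarce and noisy. It had 9.93, 10.7 and 16.2 TPM under vehicle in wildtype and 12.9, 14.3 and 14.4 TPM with MTOB, which overlapped. In dKO cells it had 11.7, 15.0 and 12.8 TPM under vehicle and 10.9, 9.26 and 10.7 TPM with MTOB, which did not. The log2 effect of MTOB was 0.19 in wildtype (95% interval -0.15 to 0.53) and -0.32 in dKO cells (-0.66 to 0.01). The difference between these effects, wildtype minus dKO, was 0.52 on the log2 scale (95% interval 0.04 to 0.99), with an unadjusted p of 0.0354 and an adjusted p of 0.703 (limma). Over the 2 tests of such differences, 0 of 9 members passed for MTOB, where 0.0916% of all genes passed, and 0 of 9 for 4-Cl-HIPP, where 0% did. At an unadjusted p below 0.05 the count was 1 of 9 in each, against 6.89% and 4.48% of all genes.

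Psat1 was the gene that differed between the genotypes, with a lower level in dKO cells. Under vehicle it had 246, 241 and 257 TPM in dKO cells, below the 269, 286 and 276 TPM of wildtype cells. The fold change of (TPM + 1) was 0.895 (log2 -0.16, SE 0.04, 95% interval -0.24 to -0.08, adjusted p = 0.00829). Under vehicle 1 of 9 members passed, where 10.7% of all genes passed (7.01% higher and 3.72% lower). This call held without each of its 6 samples in turn (adjusted p 0.00749 to 0.0478). It was lost without the variance trend (adjusted p = 0.0527) and when only the 2 groups entered the fit (adjusted p = 0.0580).

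With the inhibitors present, Psat1 had 239, 247 and 240.1 TPM in dKO cells under MTOB and 231, 233 and 254 TPM under 4-Cl-HIPP. These lay below every wildtype sample of the same treatment, whose values are given above. The log2 differences were -0.10 under MTOB (95% interval -0.18 to -0.02, adjusted p = 0.105) and -0.11 under 4-Cl-HIPP (-0.19 to -0.03, adjusted p = 0.0760). Under MTOB 0 of 9 members passed by limma, against 11.2% of all genes (6.98% higher and 4.18% lower), and 4 of 9 had an unadjusted p below 0.05 against 22.4%. Under 4-Cl-HIPP 0 of 9 passed by limma, against 10.2% of all genes (6.6% higher and 3.63% lower), and 1 of 9 had an unadjusted p below 0.05 against 21.1%. The 4-Cl-HIPP difference in Psat1 passed without dKO 4-Cl-HIPP replicate 3 (log2 -0.15, adjusted p = 0.00927) and with median-of-ratios scaling (log2 -0.13, adjusted p = 0.0413). There Mthfd2 also passed without dKO 4-Cl-HIPP replicate 2 (log2 -0.15, adjusted p = 0.0477).

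**Figure D3:**
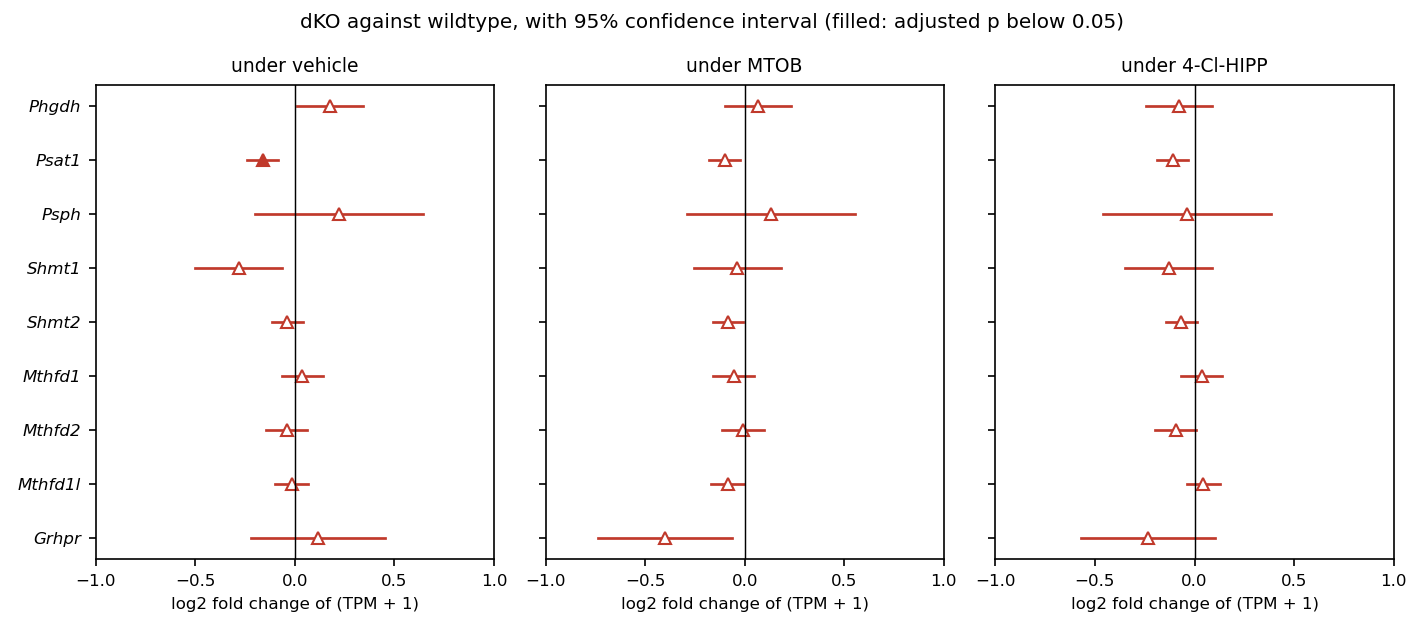
Log2 fold change of (TPM + 1) in dKO against wildtype cells under vehicle, MTOB and 4-Cl-HIPP, with 95% confidence intervals from limma; filled triangles have an adjusted p below 0.05. Psat1 lies at -0.16, -0.10 and -0.11 from left to right and is filled under vehicle, and Psph and Grhpr have the widest intervals.

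Averaged over the 3 treatments, again a contrast added after the data were seen, Psat1 was lower in dKO cells by a log2 difference of -0.12 (SE 0.02, adjusted p = 0.000395), a call that held in all 25 alternatives tried. Shmt2 also passed in this contrast, with a log2 difference of -0.06 (SE 0.02, adjusted p = 0.0429). Its call was lost in 15 of the 25 alternatives, 12 of them samples left out singly (adjusted p up to 0.0884). Shmt1 did not pass here (log2 -0.15, adjusted p = 0.0880) and passed only without dKO 4-Cl-HIPP replicate 3 (log2 -0.19, adjusted p = 0.0168). The count of 2 of 9 members stood beside 22.4% of all genes.

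The other members showed no call between genotypes. Shmt1 had 32.4, 37.2 and 32.0 TPM in dKO cells under vehicle, below the 41.9, 40.7 and 41.3 TPM in wildtype cells (log2 -0.28, 95% interval -0.50 to -0.06, adjusted p = 0.105). The dKO and wildtype samples overlapped for Shmt1 under MTOB and under 4-Cl-HIPP. Phgdh lay at 365, 365 and 351 TPM in dKO and 328, 289 and 341 TPM in wildtype cells under vehicle (log2 0.18, 95% interval 0.01 to 0.34, adjusted p = 0.196), without overlap. Grhpr had a log2 difference of -0.40 under MTOB (95% interval -0.73 to -0.06, adjusted p = 0.137), and these groups did not overlap either. Mthfd2 differed by -0.04 under vehicle (95% interval -0.14 to 0.06) and by -0.01 under MTOB (-0.11 to 0.09) on the log2 scale.

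Genes of transport and use of serine and glycine (17 of 18 listed were tested) included few calls with MTOB. In wildtype cells 1 was higher and 1 lower, and in dKO cells 3 were higher and 0 lower, with median log2 changes of -0.01 and 0.06 beside -0.0057 and -0.0127 over all genes. Among all genes 3.8% were higher and 3.46% lower in wildtype, and 3.04% higher and 3.54% lower in dKO cells. Slc1a5, a carrier of neutral amino acids including serine, rose from 210.1 ± 8.52 to 252 ± 20.2 TPM in wildtype cells (SD, n = 3; log2 0.26, SE 0.06, adjusted p = 0.00839), a call lost with only the compared groups (adjusted p = 0.116). In dKO cells Slc1a5 had 237 ± 1.29 TPM under vehicle and 251 ± 16.5 TPM with MTOB (SD, n = 3; log2 0.08, adjusted p = 0.520, not passed). With 4-Cl-HIPP 0 of 17 passed by limma in each genotype, and 2 in each had an unadjusted p below 0.05. Of all genes, 0.366% and 0.501% passed and 8.19% and 8.47% had such an unadjusted p in wildtype and dKO cells. Between genotypes 2, 3 and 2 of 17 were higher and 0 were lower in dKO cells under vehicle, MTOB and 4-Cl-HIPP. The all-gene shares there were 7.01%, 6.98% and 6.6% higher and 3.72%, 4.18% and 3.63% lower. Sdsl, a serine dehydratase-like enzyme, had 0.260 ± 0.338 TPM in wildtype and 2.42 ± 1.10 TPM in dKO cells under vehicle (SD, n = 3; log2 1.43, SE 0.30, adjusted p = 0.00477) and passed in all 3 genotype comparisons. The vehicle call was lost with only the compared groups (adjusted p = 0.0535), and its log2 value was 3.19 with a pseudocount of 0.1, with wildtype vehicle samples at 0 to 0.642 TPM. Slc38a1, a glutamine carrier, passed under vehicle (log2 0.18, adjusted p = 0.0387) and 4-Cl-HIPP (log2 0.18, adjusted p = 0.0389), and Sfxn3, a mitochondrial serine carrier of the sideroflexin family, under MTOB (log2 0.74, adjusted p = 0.00475). The MTOB count in this list ran from 1 to 3 in wildtype and from 0 to 4 in dKO cells over 13 alternatives each, and the Slc38a1 calls were lost in 8 of 13 under vehicle and 9 of 13 under 4-Cl-HIPP, in each with 5 of 6 samples when left out singly (adjusted p up to 0.142 and 0.177).

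The other folate enzymes and carriers (15 of 18 tested) gave 0 calls by limma with either inhibitor in either genotype. Of all genes, 7.26% and 6.58% passed with MTOB and 0.366% and 0.501% with 4-Cl-HIPP in wildtype and dKO cells. At an unadjusted p below 0.05 there were 2 and 1 with MTOB and 0 and 1 with 4-Cl-HIPP in wildtype and dKO cells. The all-gene shares there were 18.4% and 19% with MTOB and 8.19% and 8.47% with 4-Cl-HIPP. Their median log2 change with MTOB was 0.02 in wildtype and 0.09 in dKO cells. In dKO against wildtype cells 1 was higher and 0 lower under vehicle, 1 and 2 under MTOB, and 0 and 2 under 4-Cl-HIPP, where 10.7%, 11.2% and 10.2% of all genes passed in either direction. Ggh, which trims polyglutamate chains from folates, was higher in dKO cells under vehicle, at 7.85 ± 1.08 against 4.70 ± 1.67 TPM (SD, n = 3; log2 0.66, SE 0.18, adjusted p = 0.0273), and under MTOB (log2 0.80, adjusted p = 0.00864). The reduced folate carrier Slc19a1 was lower in dKO cells under MTOB (log2 -0.28, adjusted p = 0.0234) and 4-Cl-HIPP (log2 -0.26, adjusted p = 0.0329). Mthfd2l, the mitochondrial paralog of Mthfd2, had only 1.84 ± 0.342 TPM with MTOB in dKO and 4.37 ± 0.0833 TPM in wildtype cells (SD, n = 3; log2 -0.93, adjusted p = 0.0174), and Aldh1l2, which oxidises mitochondrial formyl-folate, was lower under 4-Cl-HIPP (log2 -0.69, adjusted p = 0.0198). Of 13 alternatives each, 5 lost the Ggh call under vehicle, and 4 and 6 the Slc19a1 calls under MTOB and 4-Cl-HIPP, in each case with 4 of the 6 samples compared when left out singly (adjusted p up to 0.124, 0.0983 and 0.150). The Mthfd2l call was lost without replicate 3 of either MTOB group (adjusted p up to 0.0739), and the Aldh1l2 call without replicate 3 of either 4-Cl-HIPP group (adjusted p up to 0.103) and with only the compared groups (adjusted p = 0.161). With only the compared groups the Ggh calls had adjusted p = 0.175 under vehicle and 0.0537 under MTOB.

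Genes of purine synthesis, which consumes formyl-folate, gave few calls with MTOB. Of 8 tested, 0 were higher and 2 lower in wildtype, and 0 higher and 1 lower in dKO cells. Their median log2 changes were -0.06 and -0.14. The all-gene shares were 3.8% higher and 3.46% lower in wildtype, and 3.04% higher and 3.54% lower in dKO cells. Paics fell from 235 ± 4.01 to 209.7 ± 11.7 TPM in wildtype (SD, n = 3; log2 -0.16, SE 0.04, adjusted p = 0.0236) and from 279.8 ± 4.27 to 244 ± 3.55 TPM in dKO cells (SD, n = 3; log2 -0.20, SE 0.04, adjusted p = 0.00820). The dKO call for Paics held in all 13 alternatives, while the wildtype call was lost in 6 of 13, among them without wildtype vehicle replicate 1 or 3 and without wildtype MTOB replicate 2 or 3 (adjusted p up to 0.109). The MTOB count of purine genes in wildtype ran from 0 to 2 over the alternatives. Gart, which makes formylated purine precursors, passed with MTOB in wildtype (log2 -0.24, adjusted p = 0.0118), a call lost in 3 of 13 alternatives, among them without wildtype vehicle replicate 3 or MTOB replicate 1 (adjusted p up to 0.0628), and in dKO cells its log2 effect was -0.17 (adjusted p = 0.0787). With 4-Cl-HIPP 0 of 8 passed by limma in each genotype, with 0 in wildtype and 3 in dKO cells at an unadjusted p below 0.05. Of all genes, 0.366% and 0.501% passed and 8.19% and 8.47% had such an unadjusted p in wildtype and dKO cells. Paics was higher in dKO than in wildtype cells in all 3 genotype comparisons, with log2 differences of 0.22 to 0.25, and under MTOB this was lost with only the compared groups (adjusted p = 0.0612). Atic, which uses formyl-folate in the last steps, was higher in dKO cells under vehicle (log2 0.12, adjusted p = 0.00822), a call lost without the variance trend (adjusted p = 0.0865) and with only the compared groups (adjusted p = 0.0763). Between genotypes 2, 2 and 1 of 8 were higher and 0 lower in dKO cells under vehicle, MTOB and 4-Cl-HIPP. The all-gene shares there were 7.01%, 6.98% and 6.6% higher and 3.72%, 4.18% and 3.63% lower. Under MTOB these were Paics and Gart (log2 0.18), and the count there ran from 0 to 2 over 13 alternatives. That Gart call was lost in 8 of 13 (adjusted p up to 0.186, limma).

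Genes of the amino acid response, a program driven by ATF4 to which Phgdh, Psat1, Shmt2 and Mthfd2 are commonly assigned, rose with MTOB in part. In each genotype 5 of 15 tested genes were higher and 0 lower, with median log2 changes of 0.26 in wildtype and 0.25 in dKO cells beside -0.0057 and -0.0127 over all genes. Of all genes, 3.8% and 3.04% were higher and 3.46% and 3.54% lower. Slc7a11, the cystine importer, rose from 4.81 ± 0.379 to 16.7 ± 1.16 TPM in wildtype (SD, n = 3; log2 1.60, SE 0.10, adjusted p = 3.09e-08) and from 2.81 ± 0.302 to 13.2 ± 1.52 TPM in dKO cells (SD, n = 3; log2 1.90, SE 0.10, adjusted p = 5.96e-09). The leucine carrier Slc7a5 rose in wildtype (log2 0.17, adjusted p = 0.00713, lost without the variance trend at 0.0503) and in dKO cells (log2 0.14, adjusted p = 0.0212). Beside these, the log2 MTOB effects on Phgdh (0.03 and -0.07), Psat1 (-0.10 and -0.03) and Shmt2 (-0.02 and -0.06) were not past the test, and Mthfd2 (0.18 and 0.21) was. With 4-Cl-HIPP 0 of 15 passed by limma in each genotype, with 3 in wildtype and 1 in dKO cells at an unadjusted p below 0.05. Of all genes, 0.366% and 0.501% passed and 8.19% and 8.47% had such an unadjusted p in wildtype and dKO cells. In dKO against wildtype cells 2 were higher and 3 lower under vehicle, and 2 higher and 4 lower under each inhibitor, beside 7.01% higher and 3.72% lower, 6.98% and 4.18%, and 6.6% and 3.63% of all genes. Ddit4, an inhibitor of mTORC1 signalling, was higher (log2 1.28 to 1.51) and the transcription factor Atf5 lower (log2 -0.69 to -0.53) in all 3 genotype comparisons. Slc7a11 and Slc7a5 also passed as lower in dKO cells in all 3. The Slc7a11 difference under MTOB (log2 -0.32) was lost in 8 of 13 alternatives (adjusted p up to 0.180, limma). Those of Slc7a5 were lost in 5, 2 and 1 of 13 under vehicle, MTOB and 4-Cl-HIPP. The MTOB count in this list ran from 4 to 6 in wildtype and from 1 to 6 in dKO cells over 13 alternatives each, and the Slc7a5 call in dKO cells was lost in 6 of them, among them without dKO vehicle replicate 2 or 3 and dKO MTOB replicate 1 or 2 (adjusted p up to 0.0846). The Slc7a11 calls for MTOB against vehicle held in all 13 alternatives in each genotype.

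**Figure D4:**
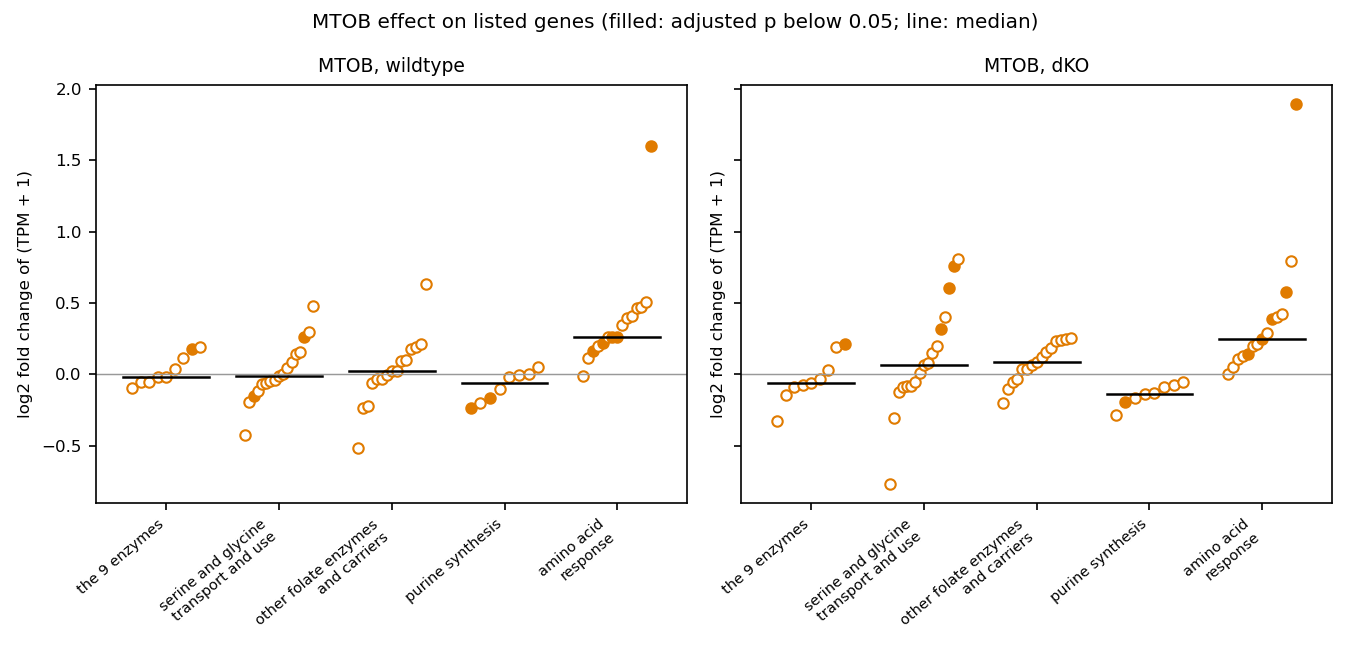
Log2 fold change of (TPM + 1) with MTOB against vehicle for the 9 genes and 4 lists, with 1 point for each tested gene, filled at an adjusted p below 0.05, and a line at each list's median. In both panels 5 amino acid response genes are filled, with Slc7a11 highest at 1.60 and 1.90, while 1 of the 9 enzymes is filled.

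The genes most like Mthfd2 across samples were Nlrp3 (r = 0.942), Zfp36 (0.915), Cited2 (0.907), Psmd8 (0.901) and Ccl3 (0.900), by Pearson's r of log2(TPM + 1) over 18 samples among 11043 genes. The genes most like Phgdh were the pseudogene Gm6063 (r = 0.761), Mrpl23 (0.740), Insig2 (0.719), Ttf1 (0.679) and the pseudogene Gm5846 (0.663). The 18 points share their libraries and fall into 6 groups, so these correlations describe the samples and were not tested. Nlrp3, the inflammasome sensor, ran from 18.1 to 41.2 TPM and the chemokine gene Ccl3 from 14.6 to 123 TPM.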

How the data were processed

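J774.1 RNA was sequenced from 18 samples with an unstranded mRNA kit. The methods name rRNA depletion and the labels polyA RNA. The authors quantified reads with Salmon 1.9.0 against GENCODE M28 (GRCm39) and deposited 1 table of 18204 genes with scaled TPM per sample, a mean normalized count over all samples from DESeq2 1.44.0 (a size-scaled signal, printed as the authors' value), and log2 fold changes and adjusted p-values of their own comparisons, which were not used. TPM keeps no read depth, so depth is unknown and no counting interval is given. Every sample column of the table was used.

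Groups came from the labels. log2(TPM + 1) was fitted with limma 3.58.1 in R 4.3.3 as 6 group means over 18 samples, with a variance trend on the mean normalized count, for the 16383 genes above its 10th percentile (0.222). Tests were two-sided, with Benjamini-Hochberg adjustment over these genes and a limit of 0.05, and fold changes understate those of scarce genes. P-values measure the spread between these samples, which may include technical spread. Whether the samples of 2 groups overlapped is stated for some comparisons only, as a description. How often groups separate among all genes was not computed. The members and lists were chosen with earlier results of these data known. The text names all 9 members, Ctbp1 and Ctbp2, at most 4 genes of each list (those passing most of the 7 comparisons of 2 groups, ties by smallest p) and the 5 genes with the highest r to Phgdh and to Mthfd2 (mean normalized count of at least 10). Nlrp3 and Ccl3 were picked from these for their levels after values were seen. Outside this rule, the text names some macrophage markers, the protein-coding genes that share exon bases with a member, and Phgdh-ps1. Contrasts averaged over genotypes or treatments were added after seeing the data. Positions are from GENCODE vM39, and promoters are from the RefSeq table (GRCm38.p6), in which all 9 members matched, and the 3 shown were placed in GRCm39 by exact sequence. Figures were drawn with matplotlib 3.10.9. Alternatives were pseudocount 0.1, no expression filter or a minimum count of 10, no variance trend, median-of-ratios scaling, only the compared groups, a replicate block, and each sample left out.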

Additional observations from a re-analysis of the deposited data

How the results depend on the processing

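Of 1728 recomputed values of the 9 genes, 1643 kept their direction and side of the threshold, 27 calls were lost, 8 were gained and 50 changed sign, none of them a called value; the cause of each change was not tested. The number of members passing was 1 in place of 2 for dKO against wildtype averaged over treatments with a pseudocount of 0.1, without the variance trend and with the replicate block. It was 0 in place of 1 for MTOB in wildtype without the trend and with the block, for MTOB in dKO cells with only the compared groups, and for dKO against wildtype under vehicle without the trend and with only the compared groups. It was 1 in place of 0 with median-of-ratios scaling for dKO against wildtype under 4-Cl-HIPP and for the averaged 4-Cl-HIPP effect. That scaling moved the all-gene median by at most 0.0139 and turned uncalled log2 values to 0.00296 for Shmt2 with MTOB in wildtype, 0.00427 for Phgdh with averaged MTOB, -0.00440 for Mthfd1l with averaged 4-Cl-HIPP, -0.00348 for the Mthfd1 difference in 4-Cl-HIPP effects and -0.0103 for Mthfd1 between genotypes on average.

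Same-numbered samples did not deviate together (r -0.133 to 0.0909 over 11044 genes, 0 of 21 correlations above 0.1), so replicate numbers were not taken as pairs. With replicate number as a block, Mthfd2 with MTOB in wildtype had an adjusted p of 0.0560 (log2 0.18, limma) and the averaged Shmt2 difference 0.0615 (log2 -0.06), and 0 other member calls changed.

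Leaving out each sample in turn, the number of members passing ran from 0 to 0 for MTOB in wildtype, 0 to 1 for MTOB in dKO, 4-Cl-HIPP in dKO, averaged 4-Cl-HIPP and dKO against wildtype under 4-Cl-HIPP, and 1 to 2 for the averaged genotype difference. Uncalled log2 values that changed sign were as follows. With MTOB in wildtype, Shmt2 ran from -0.0389 to 0.00129, Psph from -0.0721 to 0.298 and Phgdh from -0.0474 to 0.0929. With MTOB in dKO cells, Psph ran from -0.111 to 0.202. With 4-Cl-HIPP, Shmt1 ran from -0.0273 to 0.0408 and Psph from -0.0290 to 0.223 in wildtype, and Mthfd1l from -0.0122 to 0.0728 in dKO cells. For averaged MTOB, Psph ran from -0.0219 to 0.163, Grhpr from -0.130 to 0.0334 and Phgdh from -0.0611 to 0.00914. For averaged 4-Cl-HIPP, Psph ran from -0.131 to 0.0164, Mthfd1l from -0.0164 to 0.0261 and Phgdh from -0.0548 to 0.00748. Between genotypes under vehicle, Mthfd2 ran from -0.0812 to 0.00122 and Grhpr from -0.00794 to 0.318. Under MTOB, Mthfd2 ran from -0.0205 to 0.00955, Shmt1 from -0.0973 to 0.0365 and Psph from -0.0503 to 0.320. Under 4-Cl-HIPP, Mthfd1 ran from -0.00906 to 0.0792, Psph from -0.120 to 0.0833 and Mthfd1l from -0.00857 to 0.0765. Averaged over treatments, Mthfd1 ran from -0.00900 to 0.0204. For the differences between genotypes in the MTOB effect, Mthfd2 ran from -0.0720 to 0.0104 and Psph from -0.100 to 0.270, and in the 4-Cl-HIPP effect Mthfd1 ran from -0.0420 to 0.0462 and Shmt2 from -0.00237 to 0.0575. Depth is unknown in TPM, and 3 replicates a group limit what can be detected in Psph and Grhpr.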
